A study of Mus musculus with 8 samples.

Results

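The mTOR pathway couples nutrients, energy and growth factors to protein synthesis. The kinase mTOR works in 2 complexes, mTORC1, built on the scaffold raptor, and mTORC2, built on the scaffold rictor. mTORC1 phosphorylates the S6 kinases, which in turn phosphorylate ribosomal protein S6 and other translation factors, while mTORC2 phosphorylates Akt. Akt restrains the TSC complex, the inhibitor of the small GTPase Rheb, and Rheb activates mTORC1. In mammalian oocytes this pathway is known for its link to translation during meiotic maturation, when transcription is silent.

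Transcripts of 10 genes of this core were examined in non-polysomal (NP) and polysomal (P) RNA of mouse oocytes. They were taken by symbol from a table of 25574 genes and comprised Mtor, Rptor, Rictor and Mlst8, the S6 kinase genes Rps6kb1 and Rps6kb2, and Akt1, Tsc1, Tsc2 and Rheb. All 10 were found and all 10 passed the filter on low values.

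The data comprised 4 NP and 4 P libraries. Fully grown oocytes came from CD1 mice aged 8 weeks, 46 h after 5 IU of pregnant mare serum gonadotropin, and were isolated in medium with 100 µM IBMX, which holds meiosis at prophase. They were then denuded, cultured without IBMX for 180 min in all, with selection of those that had undergone nuclear envelope breakdown (NEBD), and kept for 10 min in 0.1 mg/ml cycloheximide, which holds ribosomes on mRNA. Each sample held 200 oocytes, whose lysate was separated on a sucrose gradient, and gradient fractions were pooled into a non-polysomal and a polysomal part. The top fraction was left out, so particles that stayed there are in neither part. The non-polysomal part also held ribosomal subunits and single ribosomes. The paper could not exclude that heavy stored particles sedimented with the polysomes. NP and P shared strain, culture and treatment and differed in the part of the gradient. Levels are given as FPKM, fragments scaled for gene length and for the reads of the library. Because FPKM is relative to the reads of its own library, P over NP is not the share of a gene's transcripts on polysomes, and in RNA pooled from many oocytes fewer cells with a transcript and less RNA per cell cannot be told apart.

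The number of reads or fragments per library to which FPKM had been scaled ranged from 1299378 to 7594637 for NP libraries and from 2677946 to 4699328 for P libraries. NP libraries had 11703 to 13753 genes above 0 and P libraries 9139 to 11339, and the median FPKM of the tested genes was 3.41 to 5.55 in NP and 1.05 to 3.02 in P, lowest in P replicate 4. Of 10 oocyte markers such as Gdf9 and Zp3, 9 were above 0 in all libraries, with a summed FPKM of 5917 to 12145 in NP and 8412 to 29919 in P. The exception, Figla, was at 0 in P replicate 2. Of 10 granulosa and cumulus cell markers, 5 (Amhr2, Foxl2, Has2, Ptx3 and Inhba) were at 0 in every library, and the sum was 6.25 to 122 in NP and 7.03 to 62.6 in P, with Cyp19a1 the only one above 0 in all libraries. Cyp11a1 reached 46.4 FPKM in NP replicate 4 and 17.9 in P replicate 4. Most of the lowest P sum, that of P replicate 3, came from Tnfaip6.

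mTORC1 acts most strongly on mRNAs that begin with a terminal oligopyrimidine tract, a C followed by a run of C or T. To show what such a start looks like beside the starts of the genes examined, the 15 bases before and the 15 bases from the annotated start are given for Rps6, whose protein is the substrate of the S6 kinases, and for Mtor, Rptor, Rictor and Rps6kb1, with the first 5 transcribed bases in capitals (RefSeq, GRCm38.p6, 5′ to 3′ on the gene's strand).
Rps6, chr4:86857353-86857382, minus strand: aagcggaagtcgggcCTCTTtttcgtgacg
Mtor, chr4:148448567-148448596, plus strand: cccgccctccccaccTCCCTggcctagaag
Rptor, chr11:119602890-119602919, plus strand: ggcgtgggggaagggAGGACggaacaccga
Rictor, chr15:6708366-6708395, plus strand: ggcgaggtttccggtGTTGTgactgaaacc
Rps6kb1, chr11:86544793-86544822, minus strand: cgcatgcgccggagcTGAACttgaggagcc
A C followed by 4 bases that are each C or T stood at the start of Rps6 but at the annotated start of none of the 9 genes found in the promoter table (Rps6kb2 was not among them). Only the gene's own strand and the annotated start were searched, and 823 of 32851 promoters (2.51%) had this start. The annotated start of Eef2, a known terminal oligopyrimidine mRNA, did not match either, so the search misses known cases. The first 5 bases of Mtor were each C or T, but they began with a T, directly after a C. The match is to letters at an annotated start and says nothing about the start used in oocytes.

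P was compared with NP by limma on log2(FPKM + 1), fitted over 14292 genes, with 4 libraries in each dataset and Benjamini-Hochberg adjustment. No gene of the core had an adjusted p below 0.1, against 3 genes (0.021%) of all tested, and adjusted p-values were between 0.433 and 0.915. At an unadjusted p below 0.05, 2 of the 10, Rps6kb1 and Rps6kb2, had lower values in P, beside 9.47% of all genes, and 0 had higher values in P, beside 0.476%. The same 2 were the only genes of the core whose 4 P values all lay below the 4 NP values, as in 5.92% of all genes, and none had all P values above NP, as in 0.357%. The log2 fold change of P over NP was below 0 for 7 of the 10, with 71.4% of all genes below 0, and its median was −0.79 for the core and −0.39 for all genes. When every library was scaled to one median FPKM, the median of all genes moved to 0.21, 41.6% of genes were below 0 in place of 71.4%, and 3 of the 10 were below 0. Relative to the median of all genes, the difference was 1.07 for Rictor, 1.0 for Mtor, 0.59 for Akt1, −0.16 for Mlst8, −0.39 for Tsc2, −0.40 for Rheb, −0.84 for Tsc1, −0.95 for Rptor, −1.30 for Rps6kb1 and −1.83 for Rps6kb2. The study describes the profiles as independent biological replicates, each divided into a non-polysomal and a polysomal part, although the sources used here do not say that a number marks the same profile in NP and P. With the replicate number as a block, limma called 1 gene in place of 3 and again none of the core. Counted within each number after the values had been seen, P was below NP in all 4 numbers for Rptor, Rps6kb1, Rps6kb2 and Rheb, 4 of the 10 genes, beside 16.5% of all genes. With 4 pairs the smallest 2-sided exact p of a sign test is 0.125, so such a test of a single gene cannot reach 0.1.

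**Figure D1:**
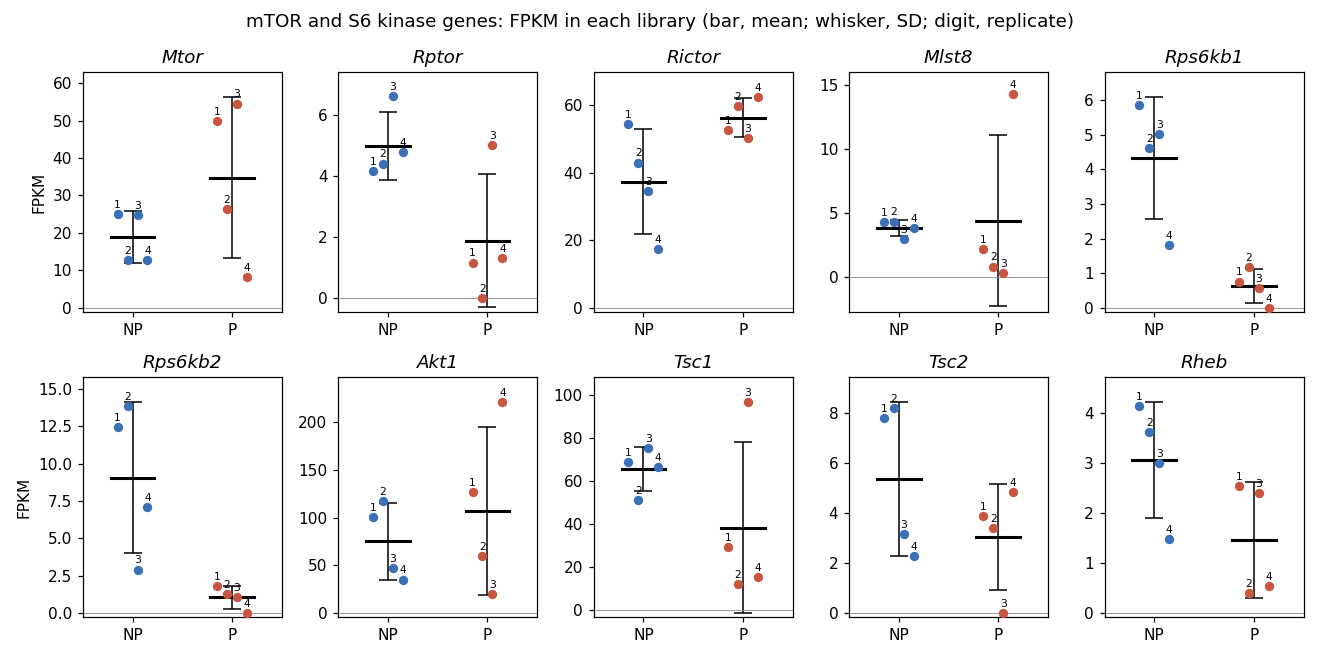
FPKM of the 10 genes in each of the 4 NP (blue) and 4 P (red) libraries, on linear axes that differ between genes. Points carry the replicate number, bars are means and whiskers are SD (n = 4). Only Rps6kb1 and Rps6kb2 have every P library below every NP library.

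The S6 kinase genes stood lowest in P relative to NP. Rps6kb1 (chr11:86498871-86544805, minus strand, GRCm38) encodes the S6 kinase best studied as a readout of mTORC1. Its FPKM was 5.86, 4.62, 5.03 and 1.81 in NP replicates 1 to 4 and 0.762, 1.19, 0.572 and 0 in P replicates 1 to 4. The highest P value was below the lowest NP value. The means were 4.33 ± 1.76 in NP and 0.631 ± 0.493 in P (SD, n = 4), and the log2 fold change was −1.69 (95% interval −3.23 to −0.15, SE 0.72, adjusted p = 0.470 by limma). Rps6kb2 (chr19:4156713-4163354, minus strand) encodes the second, closely related S6 kinase. Its FPKM was 12.4, 13.8, 2.92 and 7.11 in NP and 1.83, 1.28, 1.1 and 0 in P, again without overlap. The means were 9.08 ± 5.03 and 1.05 ± 0.766 (SD, n = 4), with a log2 fold change of −2.22 (95% interval −4.04 to −0.39, SE 0.85, adjusted p = 0.433 by limma). Only 4.04% of all tested genes had a lower log2 fold change than Rps6kb2, and 9.45% had a lower one than Rps6kb1. Both directions held under quantile normalization and with one median FPKM, but the intervals then no longer excluded 0. Under quantile normalization the log2 fold change was −0.93 for Rps6kb1 and −1.53 for Rps6kb2 (limma unadjusted p = 0.176 and 0.101). With one median FPKM it was −1.01 and −1.48 (limma unadjusted p = 0.161 and 0.115). On recovered reads or fragments limma-voom gave −3.41 and −3.26 (unadjusted p = 0.0239 and 0.0292, adjusted p = 0.313 and 0.331). A pseudocount of 0.1 gave −2.96 and −3.39 (limma unadjusted p = 0.0432 and 0.0208, adjusted p = 0.421 and 0.351).

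Both S6 kinase genes were at 0 in P replicate 4, the library with the fewest genes above 0. For Rps6kb1 a count of 0 allows up to 0.129 FPKM in that library (3 counts, counting error only), which is below every other value of the gene. For Rps6kb2 it allows up to 0.458 FPKM, also below every other value. Without that library the log2 fold changes were −1.47 and −1.90. In the other 3 P libraries Rps6kb1 rested on 31, 33 and 22 reads or fragments and Rps6kb2 on 21, 10 and 12, recovered from the steps between FPKM values, against 52 to 317 and 44 to 132 in NP. The gene spans of Rps6kb1 and Rnft1, on opposite strands, overlap by 155 bp, and the library kit does not mark strand. Rnft1 FPKM was 1.42 in NP replicate 4, where Rps6kb1 was at its NP minimum, and 11 in P replicate 4, where Rps6kb1 was at 0.

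Rps6kb2 had the higher FPKM of the S6 kinase genes in 3 of 4 NP libraries and in all 3 P libraries with a value above 0. For Rps6kb2 the searched length was 2445 bp and the merged exon length 5167 bp, so this order may depend on the length used by the authors. The ratio of Rps6kb1 to Rps6kb2 within a library was 0.472, 0.334, 1.72 and 0.255 in NP and 0.417, 0.932 and 0.518 in P replicates 1 to 3, and could not be formed in P replicate 4. The P ratios lay within the range of the NP ratios, so the relative level of both genes did not separate the datasets.

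Among the subunits of the mTOR complexes, Mtor, Rictor and Mlst8 had higher mean FPKM in P than in NP and Rptor lower. No difference was beyond the spread between libraries. Mtor (chr4:148448611-148557683, plus strand), the kinase of both complexes, was at 25.2, 12.9, 24.8 and 12.9 FPKM in NP and 49.7, 26.4, 54.5 and 8.24 in P. In 3 P libraries it was above every NP library, and in P replicate 4 below all of them. Its log2 fold change was 0.61 (95% interval −0.95 to 2.17, adjusted p = 0.733 by limma) and 1.17 without P replicate 4. Rictor (chr15:6708381-6800398, plus strand), the scaffold of mTORC2, was at 54.4, 43.0, 34.4 and 17.5 FPKM in NP and 52.6, 59.8, 50.2 and 62.3 in P. It was the only gene of the core that varied less in P, where the highest library was 1.24 times the lowest, than in NP, where it was 3.11 times. Its means were 37.3 ± 15.5 and 56.2 ± 5.76 (SD, n = 4), with a log2 fold change of 0.68 (95% interval −0.57 to 1.93, adjusted p = 0.665 by limma). With each library scaled to one median FPKM the log2 fold changes of Mtor and Rictor were 1.88 and 1.99, with unadjusted p-values of 0.0136 and 0.00631 and limma adjusted p-values of 0.421 and 0.419.

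Rptor (chr11:119602905-119899576, plus strand), the scaffold of mTORC1, was at 4.14, 4.40, 6.61 and 4.77 FPKM in NP and 1.15, 0, 5.01 and 1.30 in P. P replicates 1, 2 and 4 lay below every NP library, while P replicate 3 lay within the NP range. The 0 in P replicate 2 allows up to 0.0695 FPKM, and the gene rested on 73, 300 and 47 reads or fragments in the other P libraries. P over NP was −1.34 on the log2 scale (95% interval −3.13 to 0.45, adjusted p = 0.593 by limma) and −1.79 without P replicate 3. Rptor overlaps the unnamed transcript A430071A18Rik on the opposite strand, which was at most 1.64 FPKM in NP and at 0 in all P libraries.

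Mlst8 (chr17:24473550-24479078, minus strand), a subunit shared by both complexes, was even in NP and uneven in P. Its FPKM was 4.28, 4.34, 2.98 and 3.87 in NP and 2.21, 0.834, 0.334 and 14.3 in P. P replicates 1 to 3 were below and P replicate 4 above every NP library. The mean was 3.87 ± 0.629 in NP and 4.42 ± 6.64 in P (SD, n = 4), higher in P although the log2 fold change was below 0. The P values rested on 35, 9, 5 and 129 reads or fragments. Its log2 fold change was −0.55 (95% interval −2.53 to 1.44, adjusted p = 0.802 by limma) and −1.28 without P replicate 4, and it was above 0 under quantile normalization (0.29) and with one median FPKM (0.40). 9930021D14Rik, which overlaps Mlst8 on the opposite strand by 1586 bp, was at 0.132 to 1.26 FPKM in NP, at 0.640, 0 and 0.226 in P replicates 1 to 3 and at 22.5 in P replicate 4, the library in which Mlst8 was highest. Without strand the reads of both cannot be told apart.

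Within each library, Rictor had the higher FPKM of the scaffold genes. The ratio of Rptor to Rictor was 0.0760, 0.102, 0.192 and 0.272 in NP and 0.0219, 0, 0.0998 and 0.0209 in P. P replicates 1, 2 and 4 were below every NP library, and P replicate 3 was within the NP range. Within each of the 4 replicate numbers the P ratio was the lower, and for Rptor alone P was likewise below NP in all 4. The ratio was not tested, and the share of other gene pairs with such a pattern was not worked out. A ratio within a library does not depend on the scaling between libraries.

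**Figure D2:**
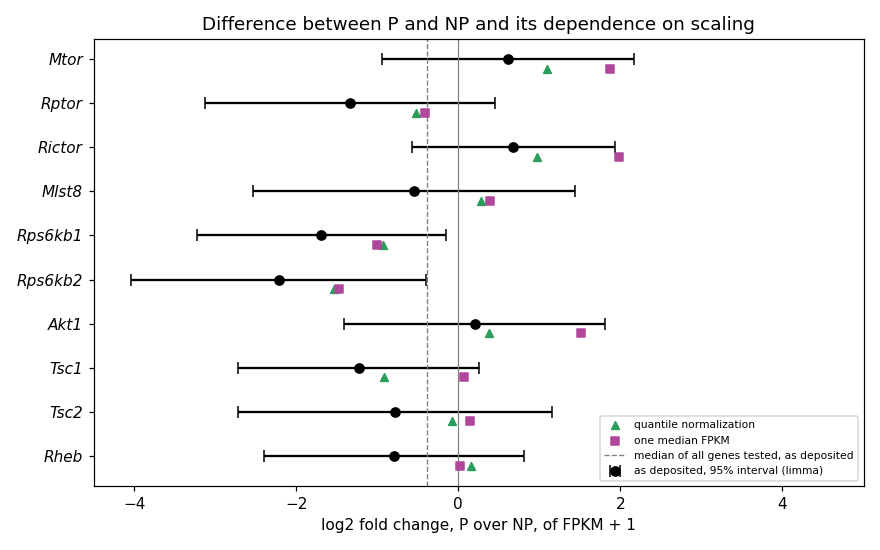
Log2 fold change of FPKM + 1, P over NP, for the 10 genes (black points, 95% interval from limma, 4 libraries in each dataset), with the values after quantile normalization (triangles) and with each library scaled to one median FPKM (squares). The intervals of Rps6kb1 and Rps6kb2 lie below 0 as deposited and the other 8 include 0. Mlst8, Tsc1, Tsc2 and Rheb have a value above 0 under at least 1 of the other scalings.

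Akt1 (chr12:112653821-112674884, minus strand), a kinase downstream of phosphoinositide 3-kinase signalling and of mTORC2, had the highest mean FPKM of the core in both datasets. It was at 100.5, 118, 47.3 and 35.3 FPKM in NP and 127, 60.2, 20.1 and 221 in P. The P libraries reached both above and below the NP range. The means were 75.2 ± 40.0 and 107 ± 87.8 (SD, n = 4), and the log2 fold change of 0.20 (95% interval −1.42 to 1.82, adjusted p = 0.915 by limma) was −0.30 without P replicate 4.

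The TSC complex combines the scaffold hamartin, encoded by Tsc1, with tuberin, encoded by Tsc2, which acts on Rheb. Tsc1 (chr2:28641228-28691167, plus strand) was even in NP, at 68.8, 51.3, 75.4 and 66.8 FPKM, and uneven in P, at 29.4, 11.9, 96.9 and 15.3. P replicate 3 was above every NP library and the other 3 P libraries were below every NP library. P over NP was −1.23 on the log2 scale (95% interval −2.72 to 0.26, adjusted p = 0.549 by limma), −1.83 without P replicate 3, and 0.07 with one median FPKM. Tsc1 rested on 451 to 5097 reads or fragments in the P libraries, and the cause of the spread between these libraries was not tested.

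Tsc2 (chr17:24595937-24632629, minus strand) was at 7.81, 8.18, 3.15 and 2.30 FPKM in NP and 3.89, 3.42, 0 and 4.84 in P. The 0 was in P replicate 3, where Tsc1 was at its highest, and allows up to 0.112 FPKM. For Tsc2 the log2 fold change was −0.78 (95% interval −2.72 to 1.15, adjusted p = 0.727 by limma), −0.20 without P replicate 3, and 0.14 with one median FPKM. Tsc1 exceeded Tsc2 in every library, with a ratio of 8.81, 6.27, 23.9 and 29.1 in NP and 7.55, 3.48 and 3.16 in P replicates 1, 2 and 4. The gene spans of Tsc2 and Pkd1, on opposite strands, overlap by 578 bp, and Pkd1 was at 0 to 2.19 FPKM in NP and 0.0451 to 2.21 in P.

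Rheb (chr5:24802823-24842624, minus strand), the GTPase on which the TSC complex acts, had the lowest mean FPKM of the core in NP. It was at 4.13, 3.61, 3.00 and 1.47 FPKM in NP and 2.54, 0.394, 2.40 and 0.539 in P. P replicates 2 and 4 were below every NP library and rested on 7 and 8 reads or fragments. The log2 fold change was −0.80 (95% interval −2.40 to 0.81, adjusted p = 0.685 by limma), and it was above 0 under quantile normalization (0.16) and with one median FPKM (0.02).

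By mean FPKM the order in NP was Akt1, Tsc1, Rictor, Mtor, Rps6kb2, Tsc2, Rptor, Rps6kb1, Mlst8 and Rheb, and in P it was Akt1, Rictor, Tsc1, Mtor, Mlst8, Tsc2, Rptor, Rheb, Rps6kb2 and Rps6kb1. Neighbours in either order overlapped in their ranges over the 4 libraries. Within libraries, Tsc1 was above Rictor and Rictor above Mtor in all 4 NP libraries, while in P no neighbouring pair kept 1 order in all 4. The same 4 genes, Akt1, Tsc1, Rictor and Mtor, had means above 10 FPKM in both datasets and the other 6 were below 10 in both. In P, the mean of Akt1 was above that of 93.4% of tested genes and the mean of Rps6kb1 above that of 28.4%. FPKM divides by a gene's length, and for 5 of the 10 (Rictor, Mlst8, Rps6kb2, Tsc2 and Rheb) the length that gave whole reads or fragments differed from the merged exon length of the annotation, so the levels of these 5 relative to other genes depend on the length used by the authors. For 9 of the 10, SD relative to the mean was larger in P than in NP.

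The rest of the pathway was described by 7 lists of 92 genes, of which 89 were in the table and 87 were tested. None had a limma adjusted p below 0.1, the lowest being 0.376. The log2 fold change was below 0 for 66 and above 0 for 21, beside 71.4% of all genes below 0. Its median was −0.54 beside −0.39 for all genes. After scaling to one median FPKM it was below 0 for 27 and above 0 for 60, beside 41.6% of all genes below 0. The median was then 0.49 beside 0.21. Counts per list are given as deposited and change with the scaling in the same way as these totals may. At an unadjusted p below 0.05, 10 of the 87 had lower values in P and 0 had higher values, beside 9.47% and 0.476% of all genes. The P values lay entirely below the NP values for 6 genes (Prr5, Gsk3a, Kptn, Cab39l, Larp1 and Rps6ka2, the last of which falls outside the naming rule) and entirely above for 1, Slc38a9, beside 5.92% and 0.357% of all genes.

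**Figure D3:**
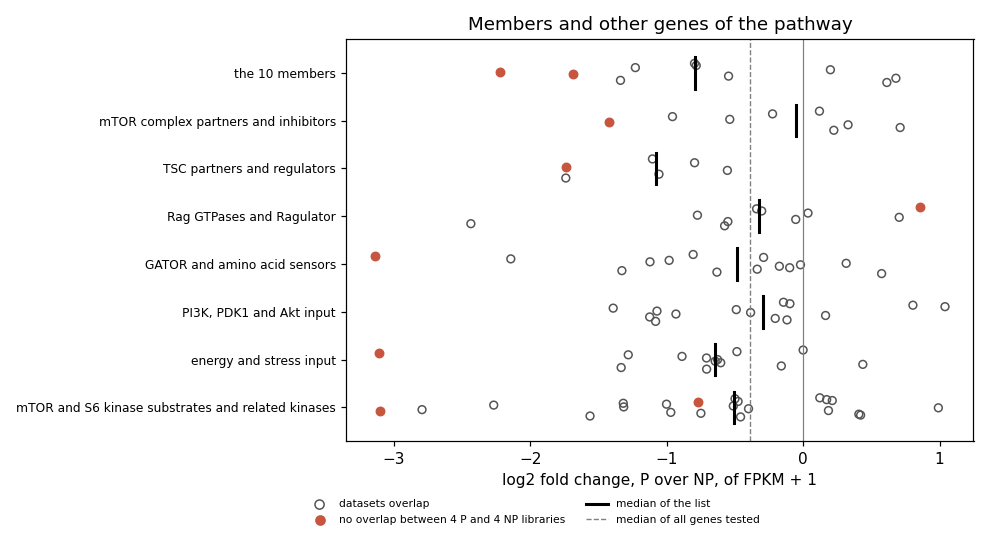
Log2 fold change of FPKM + 1, P over NP, of each gene of the core and of the 7 pathway lists. Filled points are genes whose 4 P and 4 NP values do not overlap, vertical bars are list medians, and the dashed line is the median of all genes tested, −0.39. List medians run from −1.08 for TSC partners to −0.05 for partners of the mTOR complexes, and the median of all 87 pathway genes turns from −0.54 to 0.49 with one median FPKM.

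Among 22 tested substrates of mTOR and the S6 kinases and related kinases, 15 were below 0 and 7 above, with a median of −0.51. Of all genes, 71.4% were below 0. Larp1, which encodes the protein that binds terminal oligopyrimidine mRNAs and is regulated by mTORC1, was at 18.3, 6.54, 10.2 and 11.3 FPKM in NP and 1.71, 0, 0.362 and 0 in P. Its log2 fold change was −3.10 (SE 0.82, adjusted p = 0.376 by limma), and −2.58 and −2.47 under quantile normalization and one median FPKM. On reads or fragments recovered from FPKM, limma-voom gave Larp1 an adjusted p of 0.0384, the only pathway gene called there. Across the 12899 genes in that fit the median log2 fold change was −0.85. It made 124 calls, and all except 2 were for lower values in P. No other setting tried gave a call for any pathway gene. Eef2k, the kinase that the S6 kinases restrain, was at 247 to 450 FPKM in NP and 170 to 872 in P, with a log2 fold change of 0.41. Its substrate Eef2, the elongation factor that moves the ribosome along mRNA, was at 482 to 1556 FPKM in NP and 349 to 809 in P, with a log2 fold change of −0.75.

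Of the 8 partners and inhibitors of the mTOR complexes, 4 were below 0 and 4 above, beside 71.4% of all genes below 0. Prr5, an mTORC2 subunit, was at 18.5, 36.9, 17.2 and 27.8 FPKM in NP and 13.0, 2.44, 9.74 and 13.6 in P (log2 fold change −1.42, adjusted p = 0.528 by limma). It was −0.18 with one median FPKM and −0.94 without P replicate 2. Its relative Prr5l was at 26.8 to 54.1 in NP and 10.3 to 127 in P. Akt1s1, which encodes the mTORC1 inhibitor PRAS40, ranged from 4.57 to 348 FPKM within NP and from 8.87 to 583 within P, and the datasets overlapped.

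All 6 TSC partners and regulators were below 0, beside 71.4% of all genes, with a median of −1.08. Gsk3a, a glycogen synthase kinase that is a target of Akt, was at 97.3, 65.0, 34.9 and 45.0 FPKM in NP and 19.96, 19.9, 11.3 and 15.04 in P (log2 fold change −1.74, adjusted p = 0.416 by limma), with −0.45 under one median FPKM. Ywhaz, a 14-3-3 adaptor, was at 43.4 to 194 FPKM in NP and 22.8 to 59.9 in P.

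The Rag GTPases and Ragulator bring mTORC1 to the lysosome when amino acids are present. Of 10 tested genes of this list, 7 were below 0, beside 71.4% of all genes. Rragc was at 205 to 401 FPKM in NP and 94.9 to 754 in P, and Lamtor3 at 203 to 293 and 50.2 to 302. Slc38a9, a lysosomal arginine sensor, was at 9.82, 10.6, 9.21 and 3.74 FPKM in NP and 11.4, 11.4, 26.4 and 14.5 in P (log2 fold change 0.86, adjusted p = 0.661 by limma), with 2.08 under one median FPKM. Of the GATOR complexes and amino acid sensors, 12 of 14 were below 0, beside the same 71.4%. Nprl2, a subunit that inhibits mTORC1, was at 92.9 to 412 FPKM in NP and 78.0 to 395 in P, and Sec13, shared with the nuclear pore and the secretory coat, at 124 to 514 and 44.5 to 1361. Kptn, a subunit of the complex that anchors GATOR to the lysosome, was at 81.4, 13.1, 3.99 and 9.62 FPKM in NP and 0.637, 0.654, 0 and 2.79 in P (log2 fold change −3.14, adjusted p = 0.405 by limma).

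Growth factors and energy stress feed into the pathway through phosphoinositide 3-kinase and AMP-activated kinase. Of 14 genes of the phosphoinositide 3-kinase input, 11 were below 0, beside 71.4% of all genes, with a median of −0.29. Pdpk1, the kinase that activates Akt and the S6 kinases, was at 38.6 to 75.4 FPKM in NP and 16.4 to 43.1 in P, and Igf1r, a growth factor receptor, at 6.81 to 46.4 and 12.8 to 204. Of 13 genes of the energy input, 11 were below 0, beside the same 71.4%, with a median of −0.64. The AMP-activated kinase subunits Prkab1 and Prkag1 were at 29.0 to 190.4 and 52.7 to 458 FPKM in NP and at 40.4 to 169 and 27.6 to 274 in P. Cab39l, related to the adaptor of the kinase LKB1, was at 28.8, 25.6, 40.1 and 59.0 FPKM in NP and 5.04, 14.9, 1.11 and 0.738 in P (log2 fold change −3.11, adjusted p = 0.376 by limma).

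**Figure D4:**
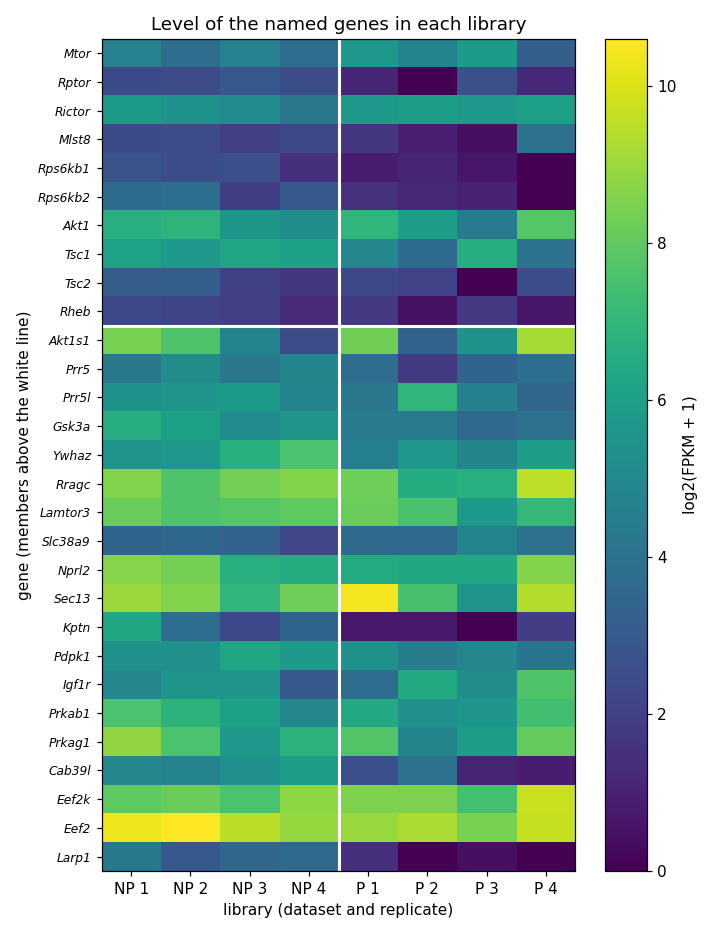
Level, as log2(FPKM + 1), of the 10 genes of the core (above the white line) and of 19 further pathway genes named by rule, in each NP and P library. Rps6kb1, Rps6kb2, Prr5, Gsk3a, Kptn, Cab39l and Larp1 are darker in every P library than in every NP library, and Slc38a9 is brighter. Akt1s1 and Sec13 vary as much within a dataset as between them.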

How the data were processed

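Total RNA of the pooled non-polysomal or polysomal fractions was freed of ribosomal RNA, copied into cDNA from oligo(dT) and random primers, amplified, and made into Nextera libraries, which do not mark strand. Per the submitters' processing notes and methods, reads were trimmed with Trim Galore 0.4.1 and mapped to GRCm38 with HISAT2 2.0.5. The deposited table holds FPKM values made by the authors in Seqmonk, not log-transformed. Columns of the authors' own comparisons (ratios of means, and DESeq2 fold changes, p-values and FDR in other tables) were not used.

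Dataset and replicate came from the titles. Genes had to reach a mean above 0.1 FPKM in NP or P. Their log2(FPKM + 1) values were fitted by lmFit and trended eBayes of limma 3.58.1 (R 4.3.3), 2-sided, with Benjamini-Hochberg adjustment over 14292 genes and a threshold of 0.1. Fold changes are on the log2(FPKM + 1) scale, which understates those of low genes. The fit was tested on simulated data. FPKM values are not counts, so depth was worked out from the step size of the values, with merged exon lengths of the annotation. For 5 of the 10 genes a searched length was used, the shortest that gave whole steps, which may be a fraction of the true one. Amplified reads without molecular identifiers are not independent molecules, so limits from a count of 0 cover counting error only. Ratios within a library used FPKM with no pseudocount.

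The genes and lists were chosen with earlier results of these data known. Named besides the core were, in each list, the 2 genes with the highest mean FPKM, any gene called, and, for each sign, at most 2 genes of largest fold change whose libraries did not overlap and whose higher mean was above 1 FPKM. Alternatives were a pseudocount of 0.1, no filter, a filter of 1 FPKM, a replicate block, quantile normalization, one median FPKM, robust variances, limma-voom on recovered reads, and leaving out each library. Start windows came from RefSeq (GRCm38.p6). Figures were drawn with matplotlib 3.10.9 in Python 3.11.15.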

Additional observations from a re-analysis of the deposited data

Results flagged for a closer look

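The 20 groups of 4 libraries were the 10 genes in NP and in P. In 1 group a library lay far from the other 3 relative to the group's range. For independent values from a normal distribution, chance alone gives this in about 1 of 20 groups. Whether FPKM values meet that condition was not checked, and the groups share the same libraries. The group was Mlst8 in P, where replicate 4 was at 14.3 FPKM and the others at 0.334 to 2.21. The overlapping opposite-strand gene 9930021D14Rik was at 22.5 FPKM in the same library, and its part in the value was not tested.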

How the results depend on the processing

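No gene of the core was called under any of the 16 alternatives, with a lowest adjusted p of 0.313 (limma-voom), and 151 of 160 fold changes kept their direction. The 9 that turned were Akt1 without NP replicate 4 (−0.10), P replicate 1 (−0.04) or P replicate 4 (−0.30), over a range of −0.30 to 0.83 when 1 library was left out, Mlst8 (0.29) and Rheb (0.16) under quantile normalization, and Mlst8 (0.40), Tsc1 (0.073), Tsc2 (0.14) and Rheb (0.0154) with one median FPKM, where 3 of 10 genes were below 0 in place of 7. The median of all genes was −0.39 as deposited, −0.02 after quantile normalization, 0.21 with one median FPKM, −0.83 with a pseudocount of 0.1 and −0.85 in limma-voom. Of all genes, 3 were called as deposited, 5 with a pseudocount of 0.1, 0 with no filter, 5 with a filter of 1 FPKM, 0 under quantile normalization, 0 with one median FPKM, and 0 to 5 when 1 library was left out (0 without any NP library or P replicate 3, 5 without P replicate 1). Limma-voom called 124 of 12899 genes, 122 higher in NP and 2 in P, and 1 pathway gene in place of 0, Larp1, and no gene of the core. Causes of these shifts were not tested.

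Replicate numbers are shared by NP and P. The profiles were each divided into both parts, but the sources used here do not say that a number marks the same profile. Deviations of same-numbered libraries correlated at 0.139, 0.0518, 0.251 and 0.155 over 11374 genes, other pairs at −0.135 to 0.136, and 7 of 8 libraries correlated best with their own number, a hint from the data that the numbers pair the libraries. With the replicate block 1 gene of all was called in place of 3, and no gene of the core, with an adjusted p of 0.404 for Rps6kb1 and 0.363 for Rps6kb2.

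Counting error weighs most on the lowest values, as for Mlst8, Rheb and both S6 kinase genes in P, which rest on few reads or fragments. Whether depth accounts for these low values was not tested.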
